A study of Rattus norvegicus with 3 samples.

Results

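The mitochondrial ribosomal RNA genes are the pair of genes for the 12S and 16S rRNA of the mitochondrial ribosome. They were taken as the rows ENSRNOG00000030478 (12S) and ENSRNOG00000043866 (16S) of the deposited count files, 2 of 26404 gene identifiers listed. The files give identifiers without names. The names 12S and 16S rest on what is known of the Ensembl rat annotation, and 0 of the 26404 identifiers joined to the RefSeq gene table used here. The 12S row was chosen by its read count in the etanercept library, 235323, the most of any row there, while the next row held 177641. Its level in that library and the comparisons that use it are therefore descriptions.

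Total RNA of adult rat liver was sequenced in 3 libraries, each from a pool of 3 rats. The healthy library came from untreated animals. The saline library came from livers 32 hours after partial hepatectomy in rats pretreated with 1 ml of saline 16 to 18 hours before surgery. The etanercept library came from livers 32 hours after the same operation in rats pretreated with etanercept, a TNF-binding fusion protein, at 9 mg/kg in 1 ml, 16 to 18 hours before surgery. Strain and sex are not given in the labels, and no group had a sham operation, so effects of regrowth and of surgery cannot be told apart. Pooling leaves each group with a single library, so nothing could be tested, and differences are between libraries rather than conditions. The 95% intervals hold counting error alone. The labelled tissue could not be checked against liver markers, because no marker could be matched to an identifier.

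The mitochondrial ribosome makes the few proteins encoded by mitochondrial DNA, all of them parts of the respiratory chain and ATP synthase. The 12S rRNA is the RNA of its small subunit, which holds the messenger RNA. The 16S rRNA is the RNA of its large subunit and contains the centre that joins amino acids. Both are transcribed from the same strand of mitochondrial DNA as one precursor, 12S before 16S, and are cut apart at the transfer RNA that lies between them. Liver cells are rich in mitochondria, and these rRNAs are among the abundant RNAs of the tissue.

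The removal of ribosomal RNA bears directly on these rows. Per the labels' protocols, it was done with a RiboMinus kit, in which probes bind rRNA and are pulled out of the sample. The labels do not say whether the probes covered mitochondrial rRNA. What is counted is the rRNA present after that step, whether or not the step removed any of it. A different amount in the tissue therefore cannot be told apart from a different efficiency of removal. In bulk liver, fewer cells of a type and less RNA per cell cannot be told apart either.

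The healthy library had 5993834 gene reads, the saline library 2645152 and the etanercept library 3639886. Gene reads were 20.9% of the uniquely aligned reads with etanercept, compared with 79.4% (healthy) and 77.5% (saline). Reads in no annotated gene were 77.4% of the uniquely aligned reads of the etanercept library. The choice of what to divide by thus matters for the etanercept library, and each rRNA is given on 3 scales.

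The 12S rRNA was far higher in the etanercept library than in the other libraries. It had 24613 reads in the healthy, 10554 in the saline and 235323 in the etanercept library. The reads were 0.411% of gene reads in healthy (exact Clopper-Pearson interval 0.406 to 0.416), 0.399% in saline (0.391 to 0.407) and 6.47% in etanercept (6.44 to 6.49). Healthy and saline were close and etanercept stood alone. By number of reads the row ranked 31 in healthy, 25 in saline and 1 in etanercept.

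As CPM, counts scaled to library sizes adjusted by TMM (trimmed mean of M-values), the 12S level was 4582 CPM in the healthy, 3262 CPM in the saline and 70872 CPM in the etanercept library. A gene was called different when its scaled counts differed 2-fold or more and reached 5 CPM in the higher library. The etanercept level was 21.7-fold that of saline, with a counting interval of 21.3 to 22.2, and 15.5-fold that of healthy, with an interval of 15.3 to 15.7. Both ratios met the rule. In the first comparison 18.3% of 9991 genes tested were called higher, and in the second 21.9% of 10069. Saline was 1.40-fold below healthy (1.37 to 1.44), which did not meet the rule. Here 9.66% of 9755 genes tested were called lower.

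The 16S rRNA differed by less than 2-fold between libraries on the same scale. It had 37439 reads in the healthy, 18214 in the saline and 33319 in the etanercept library, which ranked it 16, 15 and 12 among the rows. These were 0.625% of gene reads in healthy (0.618 to 0.631), 0.689% in saline (0.679 to 0.699) and 0.915% in etanercept (0.906 to 0.925). The 16S shares lay within a narrow range, with etanercept the highest.

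The TMM-scaled 16S level was 6970 CPM in the healthy, 5629 CPM in the saline and 10035 CPM in the etanercept library. Etanercept was 1.78-fold above saline (1.75 to 1.82) and 1.44-fold above healthy (1.42 to 1.46). Saline was 1.24-fold below healthy (1.22 to 1.26). The 16S row was called in 0 of 3 comparisons, while 37.5%, 46.0% and 19.0% of all genes tested were called in either direction in etanercept over saline, etanercept over healthy and saline over healthy. On this scale both rRNAs kept the order etanercept, healthy, saline from high to low.

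**Figure D1:**
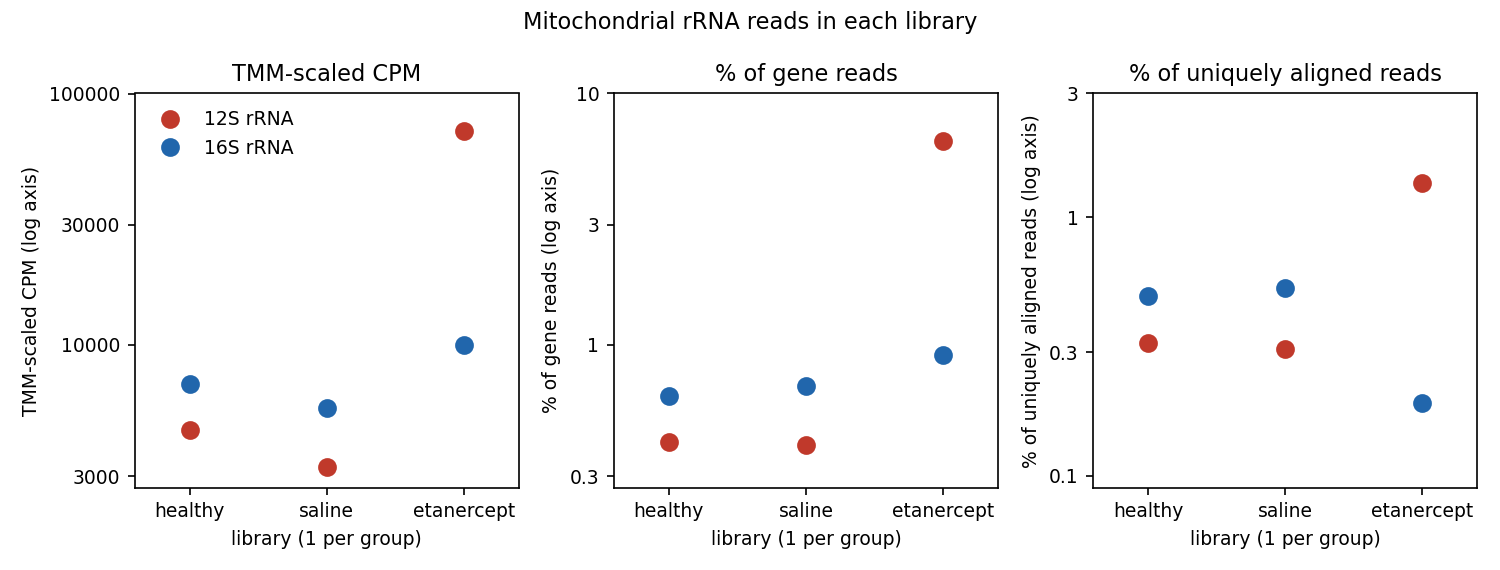
Reads of the 12S (red) and 16S (blue) rRNA rows in the healthy, saline and etanercept libraries, as TMM-scaled CPM, as percent of gene reads and as percent of uniquely aligned reads, on log axes with 1 point per library. The 12S point of the etanercept library is the highest in each panel, and the 16S point of that library is above the other libraries in the first 2 panels and below them in the last.

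The split of reads between the rRNAs does not depend on how libraries are scaled. The 12S row took 39.7% of the reads of both rows in healthy (39.3 to 40.1), 36.7% in saline (36.1 to 37.2) and 87.6% in etanercept (87.5 to 87.7). Expressed as a read ratio, 12S to 16S was 0.657 in healthy, 0.579 in saline and 7.06 in etanercept. The ratio counts reads, not molecules, since gene lengths were not used here, so it can be compared between libraries but not read as a ratio of the subunits.

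Between the etanercept and saline libraries the read ratio differed 12.2-fold, with a counting interval of 11.9 to 12.5. It was 10.7-fold higher in etanercept than in healthy (10.5 to 11.0). Healthy and saline differed far less, with a ratio 1.13-fold lower in saline (1.10 to 1.17). The sum of both rows made up 1.04% of gene reads in healthy, 1.09% in saline and 7.38% in etanercept. Had the 12S row stood at its saline CPM in the etanercept library it would have held 10830 reads. The 224493 reads beyond that were 6.17% of the gene reads of the etanercept library, against 14628 reads or 0.402% for 16S. Unlike the read ratio, these numbers depend on TMM scaling. Scaled by uniquely aligned reads, 12S was 4.37-fold higher and 16S 2.79-fold lower in etanercept than in saline.

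**Figure D2:**
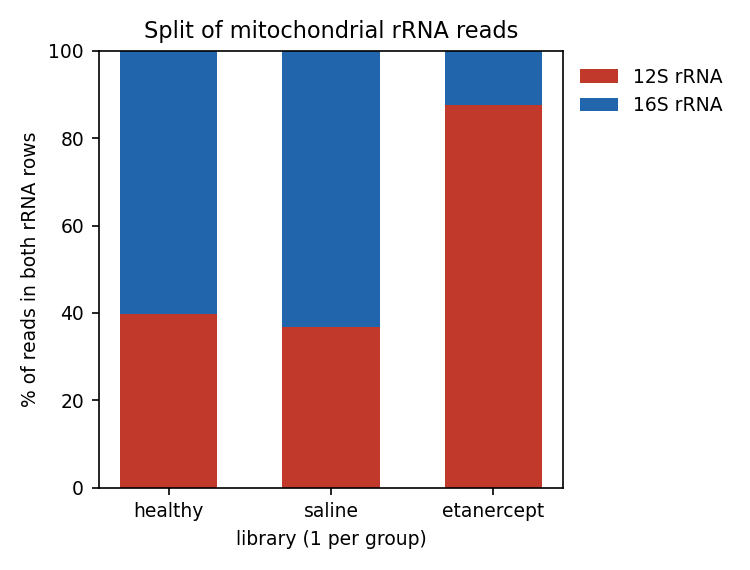
Share of 12S (red) and 16S (blue) reads among the reads of both mitochondrial rRNA rows in each library, in percent. The 12S part is 39.7% in healthy, 36.7% in saline and 87.6% in etanercept.

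Set among all genes, the 12S fold of etanercept over saline was exceeded by 91 of the 9991 genes tested, or 0.911%. The 12S row was chosen by its etanercept count, so this rank is a description. The 16S fold was exceeded by 2221 genes, or 22.2%. The median log2 fold over all genes tested was 0.00, a value largely set by TMM scaling, against 4.44 for 12S and 0.83 for 16S. In saline over healthy the 12S and 16S log2 folds were -0.49 and -0.31, with a median of -0.07 over the 9755 genes tested. There, 25.8% of genes had a lower fold than 12S and 35.3% a lower fold than 16S.

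Both rRNAs are among the 103 genes whose CPM averaged 1000 or more across libraries, a class that genes can enter through the etanercept library alone. In saline over healthy the class median log2 fold was -0.63. The 12S row lay near the middle of the class, with 45 genes above and 57 below it, and the 16S row lay higher, with 31 above and 71 below. The rule called 30.1% of the class lower and 2.91% higher.

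**Figure D3:**
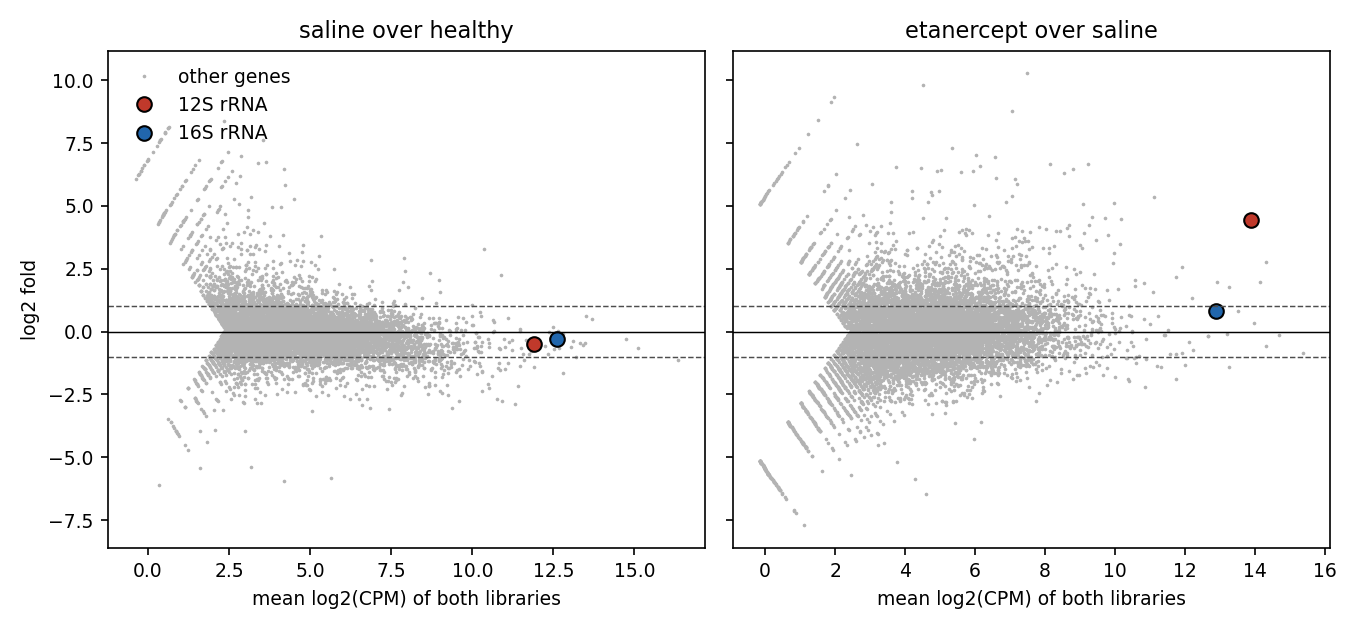
Log2 fold against mean log2(CPM) for genes with at least 5 CPM in the higher library, for saline over healthy and etanercept over saline, with 12S in red, 16S in blue and other genes in grey. Dashed lines mark the 2-fold rule, and in the second panel 12S lies at 4.44 and 16S at 0.83.

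On the scale of uniquely aligned reads the 12S difference was smaller and the 16S difference changed direction. The 12S row took 0.326% of uniquely aligned reads in healthy (0.322 to 0.330), 0.309% in saline (0.303 to 0.315) and 1.35% in etanercept (1.34 to 1.35). The 16S row took 0.496% in healthy (0.491 to 0.501), 0.533% in saline (0.526 to 0.541) and 0.191% in etanercept (0.189 to 0.193). On this scale 12S was 4.37-fold higher and 16S 2.79-fold lower in etanercept than in saline, and both would be called.

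This scale moved every log2 fold of etanercept over saline by -2.32, with 145 of 10579 genes (1.37%) then called higher and 9567 (90.4%) called lower. The 12S row was thus among the 145 genes called higher and the 16S row among the 9567 called lower. Among the genes called in this comparison, 1.49% were higher here and 48.8% with TMM. Against healthy the shift was -1.90, and 12S was 4.14-fold higher and 16S 2.60-fold lower in etanercept. There 3.78% of 9940 genes were called higher and 81.0% lower.

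Uniquely aligned reads moved the log2 folds of saline over healthy by 0.41. Division by total gene reads moved them by 0.45, and those of etanercept over saline by -0.42. The 12S log2 folds were then -0.04 and 4.02. The 16S log2 fold in saline over healthy turned from -0.31 to 0.14, and in etanercept over saline it was 0.41. With uniquely aligned reads the 16S log2 fold in saline over healthy was 0.11. The lower 16S level in saline than in healthy therefore holds with TMM and not with total gene reads or uniquely aligned reads. Of the genes called in saline over healthy, 84.6% were higher with total gene reads and 49.1% with TMM. The corresponding shares in etanercept over saline were 25.4% and 48.8%.

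**Figure D4:**
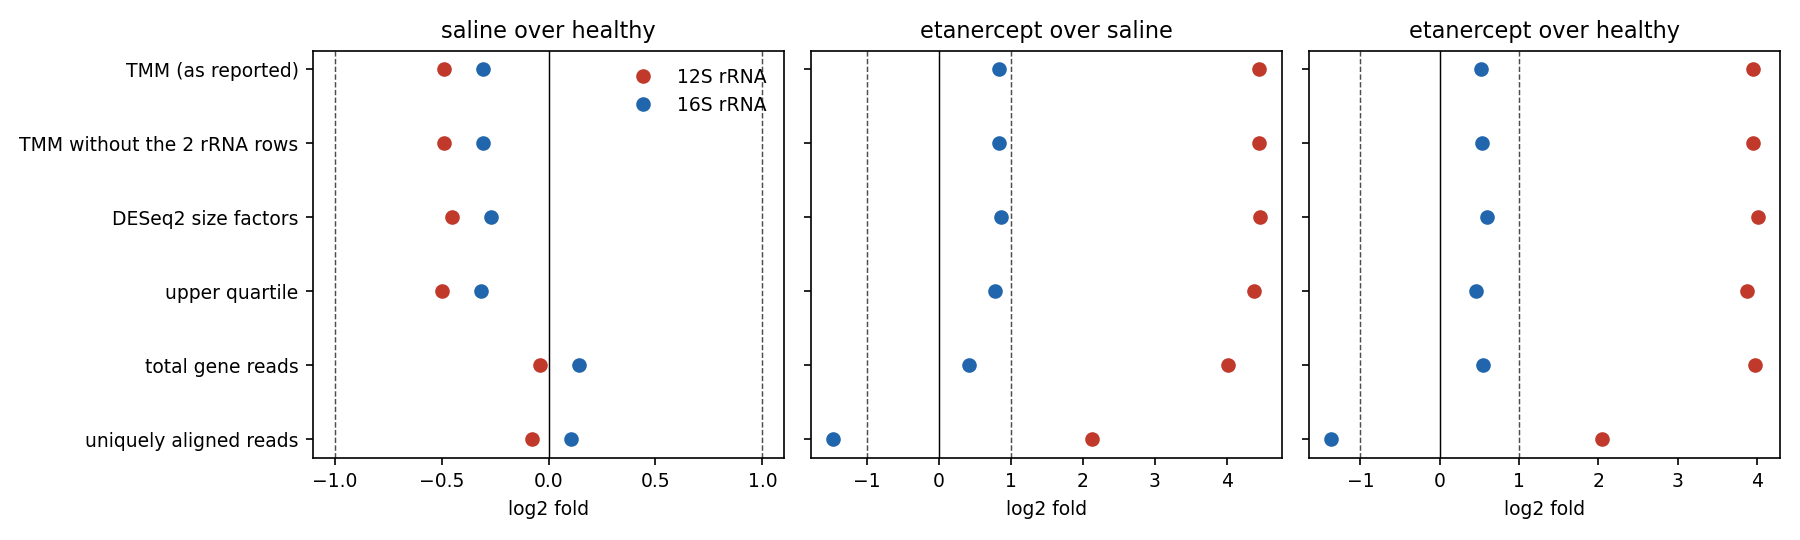
Log2 folds of 12S (red) and 16S (blue) in the 3 comparisons under 6 ways of scaling the libraries, with dashed lines at the 2-fold rule. The 12S points of etanercept over saline lie between 2.13 and 4.47, and the 16S points between -1.48 and 0.86.

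The tallies that hold no gene bear on reads of these rows, because only reads aligned to 1 place and inside 1 gene were counted for them. Entries for reads aligned to several places numbered 3.17 per uniquely aligned read in the healthy, 4.14 in the saline and 2.10 in the etanercept library. Mitochondrial sequence has copies in nuclear DNA, so reads of the rRNAs can be among them. Reads overlapping more than 1 gene came to 0.729%, 0.871% and 1.69%, in the same order. The part of either tally in the 12S and 16S counts was not tested.

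The genes with a pattern most like each rRNA were looked for among 1365 genes averaging 100 CPM or more. The measure was the Euclidean distance between log2 CPM values, with 0.5 added to each count before scaling. The values were centred on each gene's mean over the 3 libraries. The gene nearest to 12S, at a distance of 0.130, was ENSRNOG00000031766, with 228 CPM in healthy, 176 CPM in saline and 3999 CPM in etanercept. The 5 genes nearest to 12S had log2 folds of etanercept over saline between 4.12 and 4.60, and of saline over healthy between -0.69 and -0.38. These values describe the genes and follow from how they were picked. The 5 genes ranged from 23.1 to 228 CPM in healthy, 17.0 to 176 CPM in saline and 416 to 3999 CPM in etanercept. Some thus reached the mean of 100 CPM only through the etanercept library.

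The gene nearest to 16S was ENSRNOG00000005504, at a distance of 0.0232, with 110 CPM in healthy, 87.5 CPM in saline and 159 CPM in etanercept. The 5 genes nearest to 16S had log2 folds of etanercept over saline between 0.85 and 0.88, which likewise follows from the choice. The distance between 12S and 16S themselves was 2.87. Of the other genes among the 1365, 323 were nearer to 12S than 16S was, and 1301 were nearer to 16S than 12S was. The distance of 2.87 and both tallies depend on the etanercept count by which 12S was chosen, so they are descriptions. These distances rest on 3 libraries.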

How the data were processed

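RNA was sequenced from 3 pooled rat liver libraries on an Ion Torrent instrument, per the series description. Per the labels' protocols, RNA was isolated with a mirVana kit, depleted of rRNA with a RiboMinus kit and sequenced from Ion Total RNA-Seq Kit v2 libraries. Deposited were raw, unnormalized read counts for each Ensembl gene identifier. The submitters' processing notes list TopHat2 2.0.13 and HTSeq 0.6.1. No genome build, annotation or strand setting is given in the sources used here, so antisense reads may be counted in these rows.

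The 5 summary rows that name no gene stayed out of library sizes. Reads in no gene were 19.9%, 21.7% and 77.4% of all uniquely aligned reads (healthy, saline, etanercept). Libraries were scaled with TMM (edgeR 4.0.16, R 4.3.3), with factors of 0.896, 1.22 and 0.912. Folds used a pseudocount of 0.5. Intervals are exact Clopper-Pearson intervals at 95% (scipy 1.17.1), and log-normal for changes of the 12S to 16S ratio. A count of 0 would allow up to 3 counts, 0.559, 0.927 and 0.904 CPM in the same order. The fold rule and intervals were checked on simulated libraries with counting error alone and the scaling known. Spread between animals or preparations was not part of that check. The alternative scalings included DESeq2 1.42.0 size factors, and all were brought to the geometric mean of the TMM library sizes.

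The members and lists were chosen with earlier results of these data known. The rule for named genes took both members, members of 8 gene lists and the 5 genes with the most similar pattern. The lists and the cell type markers were not scored, because 0 identifiers joined to a name, and of the similar genes 1 per member is given by identifier.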

Additional observations from a re-analysis of the deposited data

Results flagged for a closer look

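With TMM scaling, the saline and etanercept libraries lay on opposite sides of the healthy library for both rRNAs. For 12S the log2 fold was -0.49 in saline and 3.95 in etanercept. For 16S it was -0.31 in saline and 0.53 in etanercept. Both results depend on the scale. For 12S in saline, total gene reads gave -0.04 and uniquely aligned reads -0.08, close to healthy. For 16S, total gene reads put both libraries above healthy, at 0.14 and 0.55. Uniquely aligned reads turned both 16S directions, to 0.11 and -1.38. With 1 library per group this difference was not tested, and both comparisons share the healthy library.

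Reads outside the gene counts stood above the healthy library in the tallies for no gene, for more than 1 gene and, in saline, for several places. Reads in no gene were 21.7% of uniquely aligned reads in saline and 77.4% in etanercept, against 19.9% in healthy. Reads in more than 1 gene were 0.871% in saline and 1.69% in etanercept, against 0.729% in healthy. Entries aligned to several places numbered 4.14 per uniquely aligned read in saline, against 3.17 in healthy.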

How the results depend on the processing

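The 12S log2 fold of etanercept over saline (4.44) kept its direction and stayed past the 2-fold rule under every alternative run, and that over healthy (3.95) did too. The 16S log2 folds did not keep their direction. Total gene reads gave 12S log2 folds of -0.0415 in saline over healthy, 4.02 in etanercept over saline and 3.98 in etanercept over healthy, and 16S log2 folds of 0.14, 0.41 and 0.55. Uniquely aligned reads gave -0.0764, 2.13 and 2.05 for 12S and 0.11, -1.48 and -1.38 for 16S. DESeq2 size factors gave -0.45 and 4.02 for 12S and -0.27 and 0.59 for 16S, in saline over healthy and etanercept over healthy. Upper-quartile scaling gave 4.38 and 3.88 for 12S and 0.77 and 0.45 for 16S, in etanercept over saline and over healthy. Thinning all libraries to the 2645152 gene reads of saline gave -0.44 and 3.98 for 12S and -0.25 and 0.56 for 16S, in saline and etanercept over healthy. Other values under these alternatives, with a pseudocount of 5 and without the rRNA rows in TMM, stayed within the counting interval.

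With uniquely aligned reads as denominator both rRNAs took 0.822%, 0.842% and 1.54% in healthy, saline and etanercept. The numbers of genes called, 1851 in saline over healthy, 3742 in etanercept over saline and 4627 in etanercept over healthy, became 5127, 8078 and 8346 with no minimum level and 950, 2085 and 2711 with a minimum of 20 CPM. Scaling by uniquely aligned reads gave 9712 in etanercept over saline and 8425 in etanercept over healthy. These moves follow from the construction of each alternative. Values per gene length, a denominator without other mitochondrial genes and the gene lists were not run, for want of names and lengths. No paired analysis was possible because each group had 1 library. After thinning, 4 of the 6 rRNA folds left their counting interval, though none changed direction. TMM was computed anew on the thinned counts, so depth and the changed scaling cannot be told apart in these moves. The spread between animals and preparations is unknown.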
